A study of Mus musculus with 6 samples.

Results

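The genes described are those of the T cell receptor complex with its coreceptors and first kinases: Cd3d, Cd3e, Cd3g, Cd247, Cd4, Cd8a, Cd2, Lck and Zap70. They were found by symbol, and all 9 were present among the 24421 gene symbols of the count table. The data were RNA sequencing counts of 6 mouse neurofibromas, which are benign nerve sheath tumours, on a C57BL/6J background. In miR155KO_Nf1KO both the microRNA miR-155 and Nf1 were deleted, and this group held 3 tumours, named MiRNC149, MiRNC640 and MiRNC670. In Nf1KO, with 3 tumours named Nf803, Nf809 and Nf827, Nf1 was deleted and miR-155 was not. In both groups the Nf1fl/fl allele was recombined by DhhCre, a Cre recombinase under the promoter of the Schwann cell lineage gene Dhh, so that Nf1 was lost in cells of that lineage and not by design in T cells. No drug was given, per the labels, which state no age and do not tie tumours to animals, so each p-value reflects the spread among tumours, which may come from fewer animals. The stated purpose of the comparison was to look for possible targets of miR-155 among genes that differ.

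The T cell receptor recognises peptide on a major histocompatibility molecule but has no signalling domain of its own. It signals through the CD3 delta, epsilon, gamma and zeta chains, whose cytoplasmic tails are phosphorylated by the kinase Lck, carried to the receptor by the coreceptors CD4 and CD8, and the phosphorylated tails then recruit the kinase Zap70. The level of these transcripts in a whole tumour therefore serves as a readout of how much T cell RNA it holds. Several of them are not unique to T cells: Cd247, Cd2, Lck and Zap70 are also made by natural killer cells, and in mice Cd4 and Cd8a are also made by some dendritic cells. In bulk tumour RNA, fewer T cells and less RNA per cell cannot be told apart.

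Column totals ran from 13061129 to 15286207 reads in miR155KO_Nf1KO and from 13535534 to 16333181 reads in Nf1KO. Mir155hg, the transcript that carries miR-155, had 5, 3 and 1 reads in miR155KO_Nf1KO tumours, against 57, 66 and 71 reads in Nf1KO tumours, as the group labels state. Skeletal muscle RNA was high in 1 tumour of each group, MiRNC670 and Nf809, where the 8 muscle markers summed to 1986 and 1840 counts per 1000000 reads (CPM), against at most 322 CPM in the other 4 tumours. Nf827 stood apart in the other direction, with the highest summed level of each leukocyte list examined.

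The microRNA removed in miR155KO_Nf1KO is shown beside the single match to its 5p arm among the 3′ untranslated regions of these genes, since the study looked for targets. The mature microRNA is encoded at chr16:84714143-84714165 on the plus strand (GRCm38.p6, sequence from RefSeq), and its seed, bases 2 to 8, is in capitals. The match lies in Cd247 at chr1:165870542-165870548 on the plus strand (GRCm38, the assembly that mm10 names), and the 7 bases that pair with the seed are in capitals.
mmu-miR-155-5p: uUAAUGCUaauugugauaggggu
Cd247 site: ttccccatgAGCATTAttctcacag
The longest annotated 3′ untranslated region of each gene in GENCODE M21 was searched for the 6-base core of the seed match, GCATTA, on the transcript strand. Of the 9 genes, 1, Cd247, held the core, there as the 7-base match AGCATTA. The other 8 held no GCATTA in that window. Of 21013 genes with an annotated region, 19.57% hold the core and 12.63% hold a 7-base or 8-base match. With 9 genes, 1 gene with a match is not a result about this set. The regions searched ran from 58 bases for Cd2 to 2306 bases for Cd8a, and a short region has less room for a match. Matches to miR-155-3p, from the other arm of the hairpin, were not searched. The Cd247 match is in 3 of its 9 annotated transcripts, and exons of Pou2f1, on the opposite strand, cover the same position.

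Cd3g, Cd3d and Cd3e lie together on chromosome 9 within 40056 bases (Cd3g 44969572 to 44980431, minus strand, Cd3d 44981786 to 44987339, plus strand, Cd3e 44998740 to 45009627, minus strand), and the starts of Cd3g and Cd3d face away from each other across 1355 bases. The promoters of Cd3d and Cd3e are printed because these neighbours, whose products enter the same complex, were both highest in tumour Nf827. Cd3g, the other gene of the cluster, was also highest there, and its promoter is not printed because it holds no match to the motif shown. Each runs from 250 bases before to 50 bases after the gene's start, on the gene's own strand (RefSeq, GRCm38.p6), and the letters in capitals are the motif searched, the ETS core GGAAGT or its complement ACTTCC.
Cd3d promoter, chr9:44981536-44981835, plus strand: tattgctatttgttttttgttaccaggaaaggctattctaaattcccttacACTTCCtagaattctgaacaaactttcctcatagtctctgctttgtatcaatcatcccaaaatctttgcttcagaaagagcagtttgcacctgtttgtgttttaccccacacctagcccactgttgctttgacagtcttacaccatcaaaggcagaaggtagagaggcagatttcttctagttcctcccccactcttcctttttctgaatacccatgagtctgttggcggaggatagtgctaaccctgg
Cd3e promoter, chr9:45009562-45009861, minus strand: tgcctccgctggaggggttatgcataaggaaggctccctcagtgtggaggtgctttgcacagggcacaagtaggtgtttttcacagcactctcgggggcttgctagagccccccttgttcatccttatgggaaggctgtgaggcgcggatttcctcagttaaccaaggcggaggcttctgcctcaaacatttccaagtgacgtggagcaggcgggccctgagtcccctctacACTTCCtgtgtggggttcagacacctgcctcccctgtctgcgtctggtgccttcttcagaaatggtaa
The printed promoters hold 1 ETS core each and that of Cd3g holds 0, which is why it is not printed. Of 32851 promoters of the same length, 23.77% hold the core on either strand. Because of that choice, the printed matches are not a result to set beside this share. The TATA box TATAAA was in none of the 3 promoters of Cd3d, Cd3e and Cd3g, and 13.62% of all promoters hold it. The RUNX core TGTGGT was also in none of them, against 16.76% of all. The GATA core GATAAG was in that of Cd3g only, 1 time, and 7.44% of all promoters hold it. Elsewhere in the set, the ETS core was found 2 times for Cd247, 1 time in each Lck promoter and 0 times for Cd8a. The Zap70 promoters held it 0, 1 and 0 times. These matches describe the letters only.

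No gene of the set passed the edgeR test between tumours without and with miR-155, while DESeq2 put Cd8a and Cd4 past it, and so did edgeR for Cd3e and Cd2 when tumour Nf809 was left out. The fold changes of all 9 were negative in miR155KO_Nf1KO, but the counts were low, the tumours of 1 group differed widely among themselves, and 1 tumour, Nf827, supplied most Nf1KO reads of 6 of them. Summed over the 9 genes there were 84, 78 and 114 reads in MiRNC149, MiRNC640 and MiRNC670, against 193, 208 and 761 reads in Nf803, Nf809 and Nf827. This is 5.41, 5.27 and 9.03 CPM in miR155KO_Nf1KO tumours and 14.01, 12.86 and 50.95 CPM in Nf1KO tumours. By this sum the groups did not overlap, and the gap between MiRNC670 and Nf809 was far smaller than that between Nf827 and the other Nf1KO tumours.

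Genes were compared with the edgeR quasi-likelihood test, fitted on the whole table after a filter on low counts and adjusted by the Benjamini-Hochberg method. Genes with an adjusted p under 0.05 are referred to as called. Of the 9 genes, 5 passed the filter (Cd3e, Cd247, Cd4, Cd8a and Lck) and 4 did not (Cd3d, Cd3g, Cd2 and Zap70). Of the 5 tested, 0 were called and 3 had an unadjusted p under 0.05. Of all 15604 genes, 9.96% were called in either direction, 4.74% were called lower, and 26.7% had an unadjusted p under 0.05. In a fit without the filter, which gives all 9 a value, 0 were called and 4 had an unadjusted p under 0.05, against 7.83% of 20192 genes called and 22.1% with an unadjusted p under 0.05. The median log2 fold change was -1.58 over the 5 tested genes and -1.73 over all 9 without the filter, against 0.01 and 0.02 over all genes of those fits. DESeq2, the other count model run, called Cd8a and Cd4 lower, against a background of 9.44% of genes called lower.

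**Figure D1:**
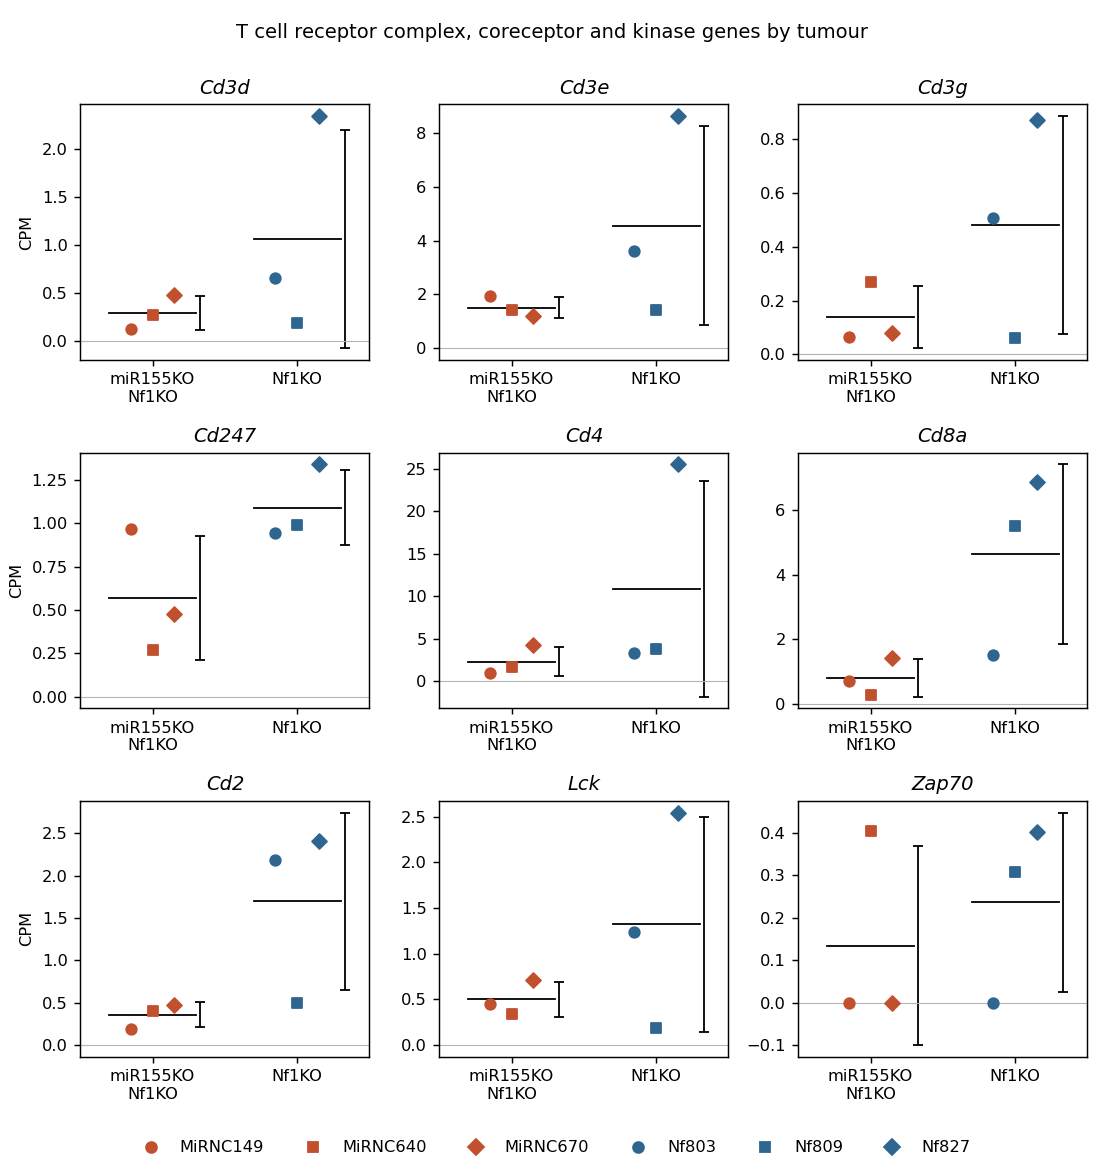
Level of each of the 9 genes in CPM (vertical axis, linear, its own scale in each panel) in the 3 miR155KO_Nf1KO and the 3 Nf1KO tumours. Points are tumours, the horizontal line is the group mean and the bar beside it the SD. Tumour Nf827 is the highest point for 8 of the 9 genes. The groups overlap for all but Cd8a and Cd2, and 13.5% of all genes with a read lie apart in that direction. For Cd2 the nearest tumours are Nf809 at 0.495 CPM and MiRNC670 at 0.475 CPM.

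The signalling chains come first. Cd3e encodes the epsilon chain, which enters each CD3 pair of the receptor, and had the most reads of the CD3 chains. It had 30, 21 and 15 reads in MiRNC149, MiRNC640 and MiRNC670, against 50, 23 and 129 reads in Nf803, Nf809 and Nf827. The Nf809 value lay inside the range of miR155KO_Nf1KO, and Nf827 held 63.9% of the Nf1KO reads. Its level was 1.51 ± 0.381 CPM in miR155KO_Nf1KO and 4.56 ± 3.70 CPM in Nf1KO (SD, n = 3 each). The log2 fold change was -1.58 (SE 0.66, 95% interval -3.13 to -0.04), with an adjusted p of 0.178 by edgeR. Without Nf809 it passed, at -2.00 and an adjusted p of 0.0431, and without Nf827 it was -0.73 with an adjusted p of 0.552.

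Cd3d encodes the delta chain, which pairs with epsilon. It had 2, 4 and 6 reads in miR155KO_Nf1KO tumours, against 9, 3 and 35 reads in Nf803, Nf809 and Nf827. Only Nf827 exceeded 10 reads, and Nf809 stood among the miR155KO_Nf1KO tumours. Without the filter its log2 fold change was -1.85 (SE 1.06, 95% interval -4.28 to 0.58, adjusted p = 0.359 by edgeR), and -0.52 without Nf827.

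Cd3g encodes the gamma chain, the partner of epsilon in the other pair, and had 1, 4 and 1 reads in miR155KO_Nf1KO tumours, against 7, 1 and 13 reads in Nf803, Nf809 and Nf827. At 6 reads against 21 in all, the depth cannot place the tumours in order. Its log2 fold change without the filter was -1.73 (SE 1.24, 95% interval -4.56 to 1.10, adjusted p = 0.470 by edgeR).

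Cd247 encodes the zeta chain, which carries most of the receptor's tyrosine motifs (chromosome 1, 165788681 to 165877277, plus strand). It had 15, 4 and 6 reads in miR155KO_Nf1KO tumours, against 13, 16 and 20 reads in Nf803, Nf809 and Nf827. Relative to its mean it had the smallest SD of the 9 genes among Nf1KO tumours, at 1.09 ± 0.216 CPM, with 0.570 ± 0.357 CPM in miR155KO_Nf1KO (SD, n = 3 each). Tumour MiRNC149 lay inside the Nf1KO range. The log2 fold change was -0.92 (SE 0.62, 95% interval -2.36 to 0.53, adjusted p = 0.397 by edgeR), and -0.75 without Nf827. Of its exonic bases, 56.43% are shared with Pou2f1 on the opposite strand, a widely used transcription factor gene with 1109 to 1336 reads in miR155KO_Nf1KO and 1397 to 1554 reads in Nf1KO. The strand setting of the counting is not given in the sources used here, so reads of Cd247 and Pou2f1 may have been shared or dropped, and the Cd247 values are uncertain. The part this overlap has in its level was not tested.

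Of the coreceptors, Cd4, which marks helper and regulatory T cells and binds class II molecules, had the largest share of its Nf1KO reads in Nf827 of the 9 genes (chromosome 6, 124864692 to 124888221, minus strand). It had 15, 24 and 53 reads in MiRNC149, MiRNC640 and MiRNC670, against 46, 60 and 381 reads in Nf803, Nf809 and Nf827. MiRNC670, at 4.20 CPM, lay above Nf803 and Nf809, at 3.34 and 3.71 CPM, and Nf827 held 78.2% of the Nf1KO reads (95% exact binomial interval 74.3% to 81.8%, counting error only). Its level was 2.26 ± 1.71 CPM in miR155KO_Nf1KO and 10.9 ± 12.7 CPM in Nf1KO (SD, n = 3 each), so the SD of Nf1KO exceeded its mean. The log2 fold change was -2.27 (SE 0.93, 95% interval -4.46 to -0.08, adjusted p = 0.173 by edgeR), and DESeq2 gave an adjusted p of 0.0359. Without Nf827 it was -0.65, with an adjusted p of 0.644 by edgeR.

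Cd8a encodes the alpha chain of the class I coreceptor of cytotoxic T cells (chromosome 6, 71373427 to 71379173, plus strand) and was 1 of the 2 genes whose groups did not overlap, as were 13.5% of all genes with a read in that direction. It had 11, 4 and 18 reads in MiRNC149, MiRNC640 and MiRNC670, against 21, 89 and 103 reads in Nf803, Nf809 and Nf827. MiRNC670 and Nf803 were nearly level, at 1.43 and 1.52 CPM, whereas Nf809 and Nf827 stood well above, at 5.50 and 6.90 CPM. The group levels were 0.801 ± 0.583 CPM in miR155KO_Nf1KO and 4.64 ± 2.79 CPM in Nf1KO (SD, n = 3 each). The log2 fold change, the strongest of the 5 tested genes, was -2.54 (SE 0.76, 95% interval -4.32 to -0.76), with an adjusted p of 0.0791 by edgeR and 0.00714 by DESeq2. Unlike that of Cd4, this change was nearly as large without Nf827, at -2.14 (adjusted p = 0.223 by edgeR).

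The balance of the coreceptors differed between tumours of 1 group. Cd8a made up 42.3% (95% exact interval 23.4% to 63.1%), 14.3% (4.03% to 32.7%) and 25.4% (15.8% to 37.1%) of the summed Cd8a and Cd4 reads in MiRNC149, MiRNC640 and MiRNC670. It made up 31.3% (20.6% to 43.8%), 59.7% (51.4% to 67.7%) and 21.3% (17.7% to 25.2%) in Nf803, Nf809 and Nf827. The counting intervals of Nf809 and Nf827 lie apart within Nf1KO, and the groups overlap. Cd8b1, the beta chain that pairs with alpha on cytotoxic T cells, did not follow Cd8a: it had 6, 7 and 0 reads in miR155KO_Nf1KO tumours, against 1, 5 and 53 reads in Nf803, Nf809 and Nf827. In Nf809, 89 reads of Cd8a thus stood beside 5 of Cd8b1, and in Nf827, 103 beside 53. Xcr1, a receptor of the dendritic cells that can carry Cd8a without Cd8b1, had 10, 30 and 34 reads in miR155KO_Nf1KO tumours and 165, 153 and 307 reads in Nf1KO tumours, and its part in the Cd8a counts was not tested.

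**Figure D2:**
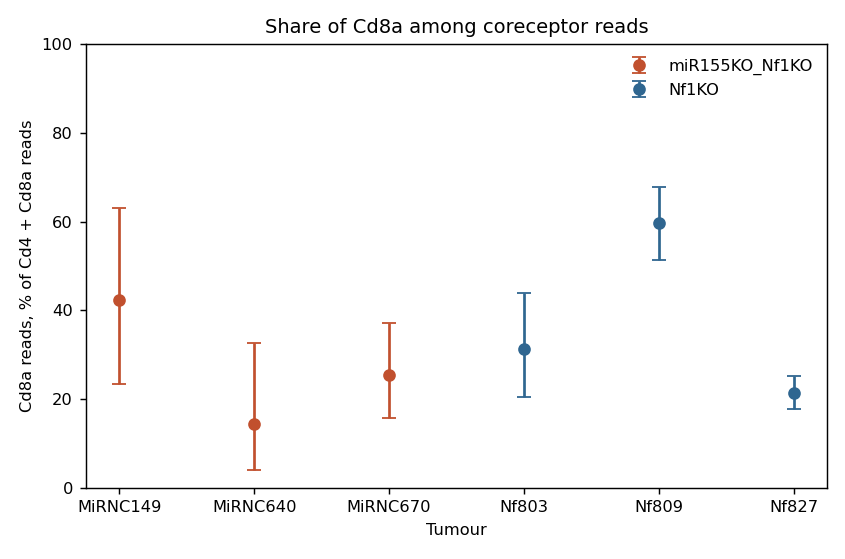
Cd8a reads as a percentage of Cd4 plus Cd8a reads (vertical axis) in each tumour, with 95% exact binomial intervals that cover counting error only. Nf809 stands highest, at 59.7%, and MiRNC640 lowest, at 14.3%, and the 2 groups overlap.

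Cd2 encodes an adhesion receptor that strengthens contact between T cells and the cells they scan (chromosome 3, 101275899 to 101287939, minus strand). It had 3, 6 and 6 reads in miR155KO_Nf1KO tumours, against 30, 8 and 36 reads in Nf803, Nf809 and Nf827. Nf803 and Nf827 stood well above the rest, and Nf809, at 0.495 CPM, was barely above MiRNC670, at 0.475 CPM, so that the groups did not overlap by a margin smaller than 1 read. Without the filter its log2 fold change was -2.23 (SE 0.81, 95% interval -4.09 to -0.37, adjusted p = 0.148 by edgeR). Without Nf809 it passed, at -2.66 with an adjusted p of 0.0376, in a fit where 6.61% of genes were called lower. Unlike Cd4, it changed little without Nf827, at -1.88.

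Among the kinases, Lck, the Src family kinase that starts the signal (chromosome 4, 129548344 to 129573641, minus strand), had 7, 5 and 9 reads in miR155KO_Nf1KO tumours, against 17, 3 and 38 reads in Nf803, Nf809 and Nf827. Nf809 was the lowest of all 6 tumours. The log2 fold change was -1.39 (SE 0.89, 95% interval -3.49 to 0.70, adjusted p = 0.375 by edgeR), and -0.49 without Nf827. Zap70, the kinase that binds phosphorylated CD3 tails (chromosome 1, 36761798 to 36782818, plus strand), was at the limit of detection, with 0, 6 and 0 reads in miR155KO_Nf1KO tumours, against 0, 5 and 6 reads in Nf1KO tumours. A count of 0 allows up to 3 reads, which is 0.193, 0.238 and 0.218 CPM in MiRNC149, MiRNC670 and Nf803, so a difference was not detectable at this depth.

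Pooled over the tumours of a group, the reads of 8 genes gave ratios of miR155KO_Nf1KO over Nf1KO whose 95% exact binomial intervals lay under 1. The ratios ran from 0.162 for Cd8a (0.109 to 0.234) to 0.533 for Cd247 (0.315 to 0.880), and Zap70 had 0.570 (0.173 to 1.68). Without tumour Nf827 the intervals of 4 lay under 1: those of Cd8a (0.209, 0.137 to 0.311), Cd2 (0.275, 0.141 to 0.512), Cd4 (0.605, 0.453 to 0.808) and Cd3e (0.630, 0.445 to 0.892). These intervals cover counting error only, and not the spread between tumours, whose reads are pooled here. The share of all genes with such an interval was not computed, so the counts of 8 and 4 genes are not a result about this set. PCR copies of 1 molecule are counted as separate reads, which makes the intervals too narrow.

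**Figure D3:**
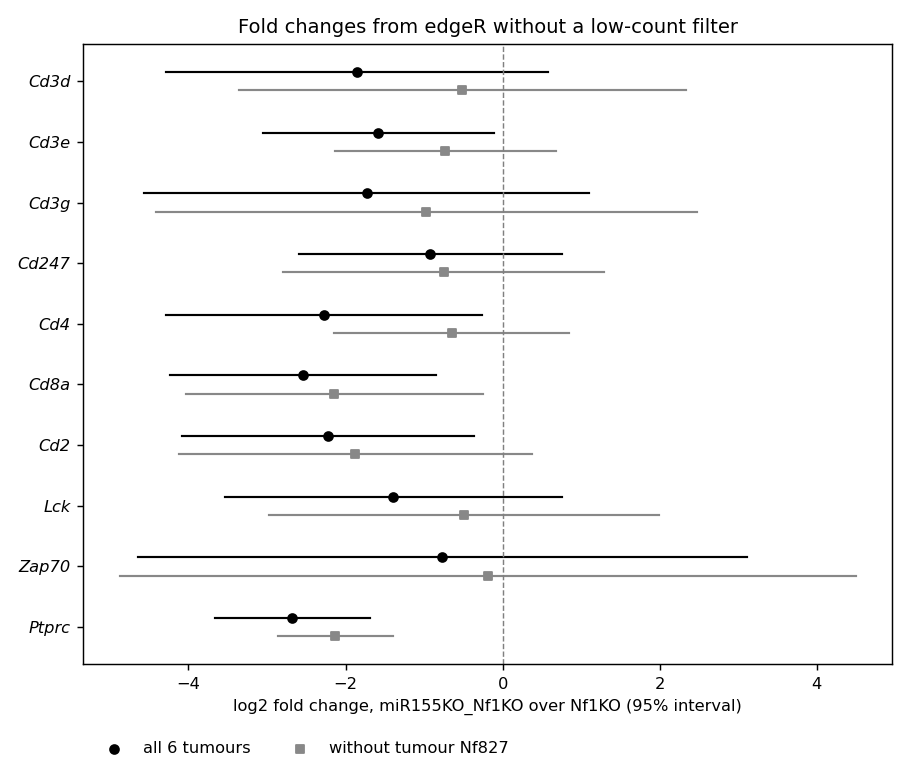
Log2 fold change of miR155KO_Nf1KO over Nf1KO (horizontal axis) with 95% intervals from edgeR without a low-count filter, for the 9 genes and the leukocyte gene Ptprc, with all 6 tumours (black) and without tumour Nf827 (grey). Without Nf827 the values of Cd4, Cd3d, Cd3e and Lck move towards 0, to between -0.73 and -0.49, while those of Cd8a and Cd2 stay at -2.14 and -1.88.

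Per kilobase of annotated exons, Cd4 had the highest mean level in both groups, 0.561 ± 0.424 CPM per kilobase in miR155KO_Nf1KO and 2.69 ± 3.15 CPM per kilobase in Nf1KO. In Nf1KO the order continued with Cd8a (1.28 ± 0.766), Cd3e (1.12 ± 0.906), Cd2 (0.973 ± 0.600), Cd3d (0.584 ± 0.625), Lck (0.451 ± 0.403), Cd247 (0.205 ± 0.0406), Cd3g (0.147 ± 0.124) and Zap70 (0.0792 ± 0.0703), in CPM per kilobase (SD, n = 3). The means of each pair of neighbours in this order differed by less than the larger of their SDs. In miR155KO_Nf1KO, Cd3e (0.371 ± 0.0933 CPM per kilobase) came before Cd8a (0.220 ± 0.160 CPM per kilobase). Among the CD3 chains the mean levels ran in the order epsilon, delta, zeta and gamma in both groups, though the zeta values are uncertain. In miR155KO_Nf1KO the delta and gamma means rest on 12 and 6 reads.

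The T cell reads were next set against leukocyte reads as a whole. Ptprc encodes CD45, the phosphatase on the surface of all leukocytes, which in T cells keeps Lck active. It had 1161, 599 and 673 reads in miR155KO_Nf1KO tumours, against 4404, 2779 and 8752 reads in Nf1KO tumours. Ptprc fell in miR155KO_Nf1KO by 2.68 on the log2 scale (SE 0.46, adjusted p = 0.0243 by edgeR), and all 10 genes of the pan-leukocyte list were called lower by edgeR, where 4.74% of all genes were. With the filter, leaving out MiRNC640, MiRNC670, Nf803 or Nf827 took the pan-leukocyte count to 0. Of the whole table, those fits called 142 genes without MiRNC640, and 0 without MiRNC670, Nf803 or Nf827. In fits without the filter the pan-leukocyte count was 7 without MiRNC640, 4 without Nf827, and 0 without MiRNC670 or Nf803. Counts below with a tumour left out are from fits with the filter unless stated. Per 1000 Ptprc reads, the 9 genes had 72.4, 130.2 and 169 reads in MiRNC149, MiRNC640 and MiRNC670, against 43.8, 74.8 and 87.0 reads in Nf803, Nf809 and Nf827. The groups overlapped, at 124 ± 48.8 in miR155KO_Nf1KO and 68.5 ± 22.2 in Nf1KO (SD, n = 3 each), and MiRNC640 and MiRNC670 had the highest ratios of the 6 tumours. Against the summed reads of the 10 pan-leukocyte genes, the values per 1000 reads were 17.8, 35.2 and 40.9 in miR155KO_Nf1KO tumours and 14.7, 20.6 and 32.1 in Nf1KO tumours. With Cd4 and Cd247 left out, a choice made after their values were seen, the other 7 genes had 46.5, 83.5 and 81.7 reads per 1000 Ptprc reads in miR155KO_Nf1KO tumours and 30.4, 47.5 and 41.1 in Nf1KO tumours. These 7 still include Cd8a, Cd2, Lck and Zap70, which are not unique to T cells.

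**Figure D4:**
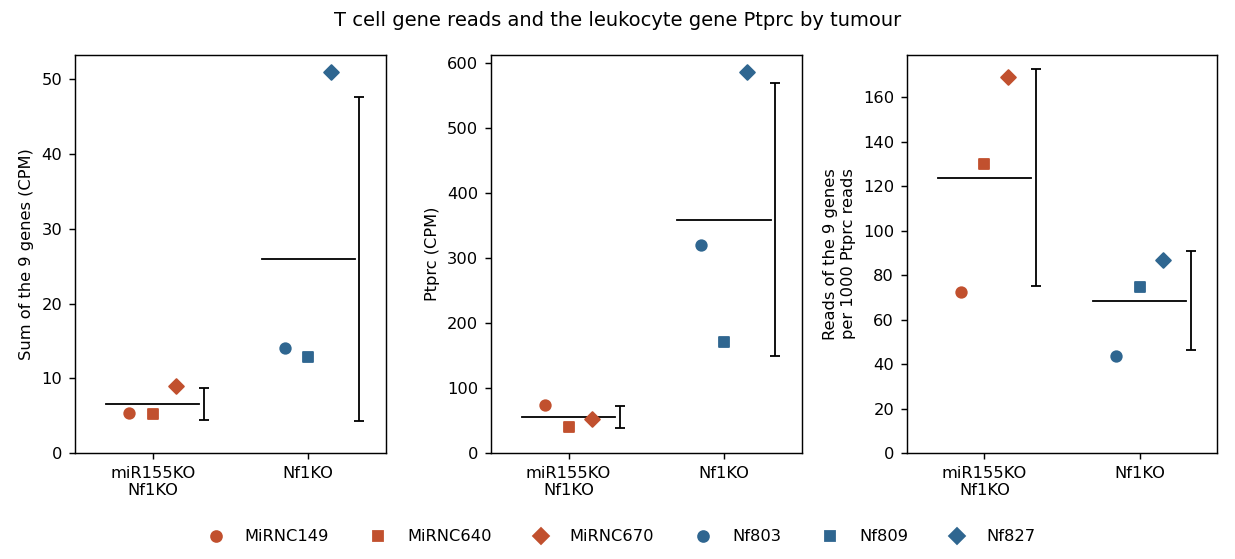
Summed level of the 9 genes in CPM (left), level of Ptprc in CPM (middle) and reads of the 9 genes per 1000 Ptprc reads (right) by tumour, with the group mean and SD. The left and middle panels separate the groups, with Nf827 highest at 51.0 and 586 CPM, and in the right panel the groups overlap.

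Other genes of T cell receptor signalling were also measured. Of 26 listed, 22 were in the table and 16 were tested. The rest of the 26 were the constant regions of the receptor's own alpha, beta and delta chains, whose symbols were not in the count table. Of the 16, edgeR called 2 lower, Ptpn22 among them, where it called 4.74% of all genes lower, and 0 higher, where it called 5.22%. DESeq2 called 5 lower and 2 higher, against 9.44% and 9.54% of all genes. Without MiRNC640 edgeR called none of this list or of the transcription factors that follow. The log2 fold change was negative for 12 of the 16, with a median of -0.9997, beside 0.01 over all genes tested. Ptpn22, a phosphatase that restrains Lck, fell by 1.86 (SE 0.45, adjusted p = 0.0445 by edgeR). Thy1, a surface protein that mouse T cells share with neurons and fibroblasts, had a log2 fold change of 0.73 (SE 0.19, adjusted p = 0.0567 by edgeR and 0.00997 by DESeq2). Fyn, a kinase of both T cells and brain, was at 0.03 (SE 0.12).

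Of 10 transcription factors of T cell subsets, 8 were tested and 1 was called lower by edgeR and by DESeq2, against 4.74% and 9.44% of all genes. Runx3, which drives the cytotoxic lineage and is also made by natural killer and dendritic cells, had 122, 67 and 67 reads in miR155KO_Nf1KO tumours, against 260, 227 and 473 reads in Nf1KO tumours, and fell by 1.86 (SE 0.36, adjusted p = 0.0277 by edgeR). Tcf7, of naive and memory T cells, had a log2 fold change of -0.83 (SE 0.32, adjusted p = 0.154 by edgeR). The median of the 8 was 0.03, beside 0.01 over all genes tested.

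Markers of the other leukocytes, some of which share genes of the set with T cells, were also measured. Of all genes, 4.74% were called lower by edgeR and 9.44% by DESeq2. Of 9 tested natural killer genes 1 was called lower by edgeR (3 by DESeq2), Klrd1, which had 10, 6 and 8 reads in miR155KO_Nf1KO tumours against 128, 159 and 243 reads in Nf1KO tumours, and the list's median log2 fold change was -1.90. Its summed level ran from 6.57 to 11.3 CPM in miR155KO_Nf1KO and from 23.5 to 62.6 CPM in Nf1KO, and Ncr1, Klre1, Gzma and Eomes were at 0 in at least 1 tumour. Of 8 dendritic cell genes 7 were called lower by edgeR (7 by DESeq2, 0 by edgeR without MiRNC640), with a median of -2.17 and summed levels of 205 to 326 CPM in miR155KO_Nf1KO and 682 to 2642 CPM in Nf1KO, and none was at 0 in any tumour. Of 12 macrophage genes 6 were called lower by edgeR (10 by DESeq2, 1 by edgeR without MiRNC640), with a median of -1.58 and summed levels of 579 to 1236 CPM in miR155KO_Nf1KO and 1556 to 2786 CPM in Nf1KO. None of 5 tested B cell genes was called by edgeR (1 lower by DESeq2), with a median of -1.30. In each of these 4 lists Nf827 had the highest summed level of all 6 tumours. The part of natural killer and dendritic cells in the Cd247, Cd2, Lck, Zap70, Cd4 and Cd8a counts was not tested.

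Nerve markers differed in the other direction. Neuron markers summed to 3426 to 5111 CPM in miR155KO_Nf1KO and 822 to 1522 CPM in Nf1KO, with 6 of 8 called higher by edgeR (8 by DESeq2, 2 by edgeR without MiRNC640). Schwann cell markers, present in all 6 tumours, summed to 3411 to 3718 CPM in miR155KO_Nf1KO and 2284 to 2681 CPM in Nf1KO, with 2 of 9 called higher by edgeR (3 by DESeq2, 1 by edgeR without MiRNC640). Of all genes, 5.22% were called higher by edgeR and 9.54% by DESeq2. All CPM values are shares of a library, and the part of these shifts in the values of the 9 genes was not tested.

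**Figure D5:**
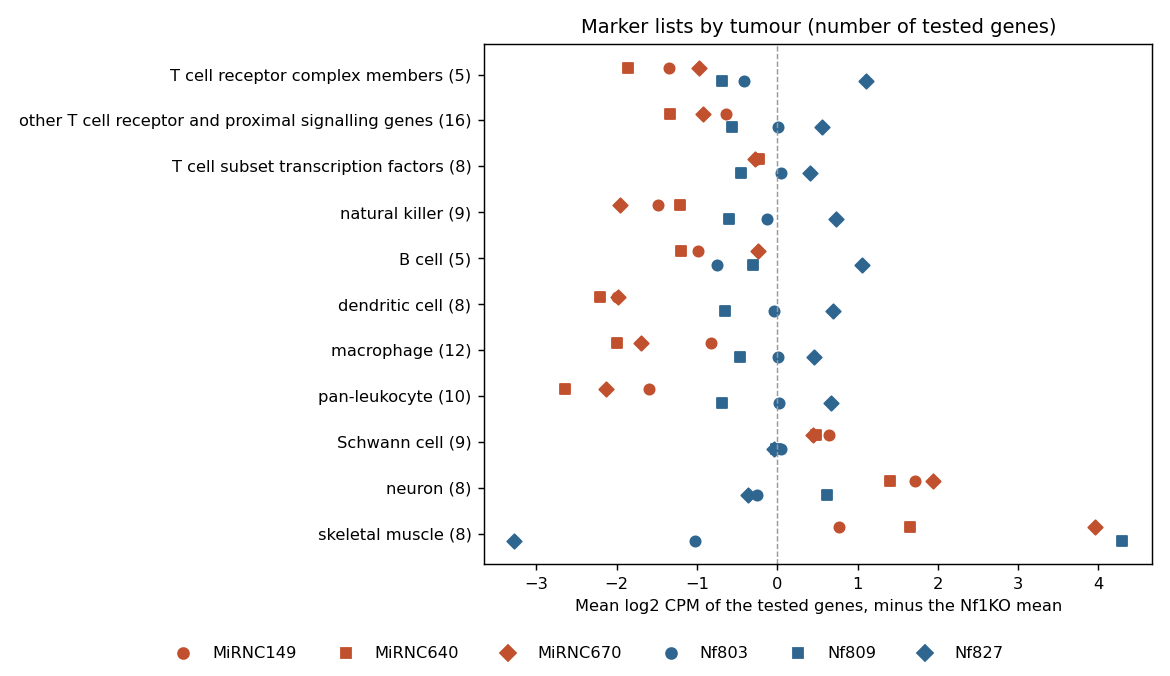
Mean log2 CPM of the tested genes of each marker list, minus its mean over the Nf1KO tumours (horizontal axis, dashed line at 0), for the 6 tumours, with the number of tested genes in brackets. For the T cell receptor complex genes, Nf809 and Nf803 lie at -0.69 and -0.41, near MiRNC670 at -0.97. For the pan-leukocyte list the nearest tumours of the groups are MiRNC149 at -1.60 and Nf809 at -0.69. A prior count of 2 in the log2 CPM draws low counts together, and its part in the distances between tumours was not tested.

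Across the 6 tumours, the genes whose log2 CPM was most alike the mean of the 5 tested genes, out of 12975 with a mean log2 CPM of at least 1, were Pram1, Hn1, Ankfy1, Vasp and Cdc16. Their Pearson r ran from 0.986 to 0.989 over 6 tumours, 418 genes reached 0.9, and Ptprc had 0.91. Pram1, an adaptor of myeloid cells, had 12.6, 10.1 and 14.8 CPM in miR155KO_Nf1KO tumours and 17.6, 18.2 and 30.5 CPM in Nf1KO tumours, and Vasp, an actin regulator, had 6.70, 6.48 and 7.84 CPM against 11.3, 9.71 and 21.8 CPM. None of these 5 was called by edgeR. The points share their libraries and depth, and each of these genes was highest in Nf827.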

How the data were processed

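The authors deposited unscaled integer counts of reads, by gene symbol, in 1 table for 6 tumours. The submitters' processing notes name mm10, featureCounts 1.5.2 and HISAT2 2.0.5. Annotation, strand setting and handling of multiply mapped reads: not given in the sources used here. Groups and tumour numbers were read from the sample titles. Replicates of 1 group differed by at least 23.2 times the variance of Poisson sampling, so none was counted as a repeat.

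From the deposited counts, genes were tested with edgeR 4.0.16 in R 4.3.3 (quasi-likelihood, two-sided, TMM, group as the only term) after filterByExpr (minimum count 10, total 15; 0.674 CPM in 3 tumours), with Benjamini-Hochberg adjustment over 15604 genes. A member can pass this filter through the group where it is high. CPM uses TMM-scaled library sizes, and log2 CPM has a prior count of 2. Standard errors and 95% intervals are those implied by the F statistic. The procedure was tested on simulated data. Exact binomial intervals are from scipy 1.17.1. Lengths, positions and 3′ untranslated regions are from GENCODE M21 (GRCm38).

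The genes and lists were chosen with earlier results of these data known, so no p-value is given for them as a set. The named genes are the 9 genes, Mir155hg, Ptprc, of each list some of the 3 with the smallest p, and the 5 most alike. Ncr1, Gzma and Eomes were named because they were at 0 in at least 1 tumour. Cd8b1, Fyn, Foxp3, Bcl11b, Prkcq and Pou2f1 were named after their values were seen. The values of 2 listed genes are not reported here, but the lists' counts and medians include them. The alternatives were other scalings, filters, DESeq2 1.42.0, limma 3.58.1 voom with and without quality weights, robust estimation and leaving out tumours. The alternative without the filter and without each tumour was chosen after seeing the data.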

Additional observations from a re-analysis of the deposited data

How the results depend on the processing

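In each alternative that gave a gene of the set a value, its log2 fold change was negative (137 of 137 values; Cd3d, Cd3g and Zap70 had values in fits without the filter only, and Cd2 there and in fits with tumours left out), and 6 of these values passed the threshold: Cd4 and Cd8a by DESeq2, and Cd3e and Cd2 by edgeR without Nf809, with and without the filter. The number of the 9 genes called was therefore 0 in edgeR, 2 with DESeq2, and 0 to 2 when each tumour was left out. The 137 values are refits of the same tumours and are not independent. The share of all genes that kept their sign was not computed. Over all genes, 1554 were called by edgeR, 2962 by DESeq2 and 2675 by limma voom with quality weights, and leaving out each tumour gave 0 to 2242 with the filter (0 without MiRNC670, Nf803 or Nf827, 142 without MiRNC640) and 0 to 2349 without it (720 without MiRNC640, 1 without MiRNC670, 321 without Nf827). At an unadjusted p under 0.05 the 3 fits with 0 calls held 3240, 3335 and 3265 genes. Without both MiRNC670 and Nf809, the tumours high in muscle RNA, 1078 genes and 0 of the 9 were called. The median log2 fold change of the 9 without the filter moved from -1.73 to -0.73 without Nf827. Mir155hg, at -4.81 to -4.02 on the log2 scale with 1 tumour left out, lost its call in 4 of these fits at adjusted p values from 0.0518 to 0.0848 (edgeR), and without the filter in those without MiRNC670 (-4.00) and Nf803 (-4.37). The cause of these differences was not tested. No paired analysis was possible because the groups share no tumour numbers. At 6 to 92 reads per gene in miR155KO_Nf1KO, depth limits Cd3g, Cd3d and Zap70 most.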

Other observations

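Foxp3, the transcription factor of regulatory T cells (chromosome X, 7573644 to 7595245, plus strand), had 81, 66 and 50 reads in MiRNC149, MiRNC640 and MiRNC670, against 79, 30 and 68 reads in Nf803, Nf809 and Nf827. These reads outnumbered those of Cd3e in all 3 miR155KO_Nf1KO tumours (30, 21 and 15 reads) and in Nf803 and Nf809 (50 and 23 reads), but not in Nf827 (129 reads), although regulatory T cells are 1 part of the T cells that make Cd3e. Its log2 fold change was 0.17 (SE 0.44, adjusted p = 0.848 by edgeR). Exons of Ccdc22, Ppp1r3f and Gm36995, on the opposite strand, share 590, 266 and 373 exonic bases with Foxp3, and those of Flicr, on the same strand, 853 bases, and their part in the Foxp3 counts was not tested. Bcl11b, which T cells need to keep their identity and which neurons also make, had 69, 59 and 39 reads in miR155KO_Nf1KO tumours and 23, 50 and 55 reads in Nf1KO tumours, with a log2 fold change of 0.45 (SE 0.40, adjusted p = 0.533 by edgeR). Prkcq, a kinase of T cell signalling that muscle also makes, had 400, 518 and 563 reads in miR155KO_Nf1KO tumours and 164, 323 and 113 reads in Nf1KO tumours, with a log2 fold change of 1.41 (SE 0.37, adjusted p = 0.0568 by edgeR). It passed by edgeR without the filter (adjusted p = 0.0494) and by DESeq2 (adjusted p = 0.00263). These 3 genes were chosen after their values were seen.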
